A study of Mus musculus with 4 samples.

Results

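A group of 318 chromatin regions kept or exceeded their Gel level in macrophage-like cells given the hydrogel CuNZ@Gel, while most comparably strong regions were lower. RAW264.7, a mouse line with macrophage properties, was profiled by ATAC-seq, which reads out open DNA by where a transposase can place its adapters. The 4 libraries comprised 2 titled Gel and 2 titled CuNZ@Gel, and the series title describes CuNZ@Gel as a nanozyme hydrogel. All 4 came from 1000000 cells seeded per well of 12-well plates and cultured for 48 h after treatment. The treatment record of every sample, those titled Gel included, names only CuNZ@Gel, so the Gel group rests on the sample titles. Separate cultures are not stated, so the spread between the 2 libraries of a group may be technical.

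The level of a region was its deposited log2(RPM + 1), with RPM the reads in the region per 1000000 scaled reads, and its change was the CuNZ@Gel mean minus the Gel mean on that scale. Held regions were those with a peak in all 4 libraries, a mean Gel level of at least 5 (31 RPM) and a change of at least 0.1 and below 1.5. The members made up 0.393% of 80929 regions and 3.11% of the 10209 regions that met the conditions on peaks and Gel level, called strong shared regions here. Of all 77014 regions tested, 43% were higher in CuNZ@Gel by 0.1 or more. The same values chose the members, so their levels and changes are given as a description without a test. The name held applies to the deposited scaling: with libraries scaled instead to the genome background, 317 of the 318 were lower in CuNZ@Gel than in Gel, as described with the other scalings.

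Regions of open chromatin mark promoters, enhancers and other elements where DNA is freed of nucleosomes and bound by transcription factors. In macrophages, lineage factors such as PU.1 keep many enhancers open, and signal-induced factors such as AP-1 and NF-kB open others. Many promoters, mainly those of broadly used genes, lie in CpG islands, stretches rich in the dinucleotide CG, whereas promoters of cell-type genes often hold few CG pairs.

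The genes named by the authors as nearest to held regions covered both kinds of promoter. Promoters were taken from RefSeq (GRCm38.p6, first listed start of each gene, 250 bases before to 50 after it) and 218 of 304 genes matched. The regions themselves are placed on GRCm39, so whether a held region lies in its gene's promoter was not analysed here. The lines give the 250 bases before the start, 5′ to 3′ on the gene's strand with each CG in capitals, for the 3 genes with the fewest and the 3 with the most CG pairs among 13 genes of the gene lists with a held region and a promoter. Cd36 (minus strand, chr5:17835897-17836146), Inpp5d (plus, chr1:87620062-87620311) and Itgam (plus, chr7:128062390-128062639) hold 3, 5 and 6 CG pairs. Tns3 (minus, chr11:8664536-8664785), Ldha (plus, chr7:46845554-46845803) and Slc30a1 (plus, chr1:191906531-191906780) hold 24, 25 and 25. The letters are
Cd36: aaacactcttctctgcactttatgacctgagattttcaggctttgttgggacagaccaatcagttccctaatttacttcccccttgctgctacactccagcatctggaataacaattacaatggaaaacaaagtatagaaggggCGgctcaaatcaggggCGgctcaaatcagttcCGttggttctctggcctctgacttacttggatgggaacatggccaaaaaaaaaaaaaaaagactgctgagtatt
Inpp5d: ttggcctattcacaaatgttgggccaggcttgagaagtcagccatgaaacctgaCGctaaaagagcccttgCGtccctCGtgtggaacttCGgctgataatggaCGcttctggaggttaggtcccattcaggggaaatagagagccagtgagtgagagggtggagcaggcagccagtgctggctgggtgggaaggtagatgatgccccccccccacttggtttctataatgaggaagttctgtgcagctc
Itgam: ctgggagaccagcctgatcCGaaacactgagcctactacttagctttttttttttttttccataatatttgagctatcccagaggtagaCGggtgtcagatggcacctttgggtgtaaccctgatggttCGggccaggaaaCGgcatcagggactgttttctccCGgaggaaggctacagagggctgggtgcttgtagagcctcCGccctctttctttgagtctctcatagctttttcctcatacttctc
Tns3: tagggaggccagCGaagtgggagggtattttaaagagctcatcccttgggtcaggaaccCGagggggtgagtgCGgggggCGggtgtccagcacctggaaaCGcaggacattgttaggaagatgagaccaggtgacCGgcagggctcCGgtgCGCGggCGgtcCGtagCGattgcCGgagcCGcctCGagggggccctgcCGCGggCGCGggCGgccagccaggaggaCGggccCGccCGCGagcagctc
Ldha: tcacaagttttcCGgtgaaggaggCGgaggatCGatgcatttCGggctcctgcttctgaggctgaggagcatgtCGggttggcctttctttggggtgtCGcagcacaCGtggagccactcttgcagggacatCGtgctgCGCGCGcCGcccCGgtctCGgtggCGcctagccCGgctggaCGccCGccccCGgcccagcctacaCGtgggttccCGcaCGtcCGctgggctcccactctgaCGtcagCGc
Slc30a1: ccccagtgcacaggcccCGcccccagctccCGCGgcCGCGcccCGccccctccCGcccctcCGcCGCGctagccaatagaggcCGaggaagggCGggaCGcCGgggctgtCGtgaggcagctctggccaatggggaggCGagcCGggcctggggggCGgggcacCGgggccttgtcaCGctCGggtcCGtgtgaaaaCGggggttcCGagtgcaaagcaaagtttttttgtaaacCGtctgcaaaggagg
The first 3 genes encode a scavenger receptor, the phosphatase SHIP1 and the integrin CD11b of myeloid cells; the others encode a focal adhesion protein, lactate dehydrogenase A and a zinc exporter.

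CG-poor promoters made up a larger share of the genes nearest to held regions than of the genes nearest only to other strong shared regions. Over all 300 bases, 101 of 218 promoters (46.3%) held fewer than 10 CG pairs, beside 1192 of 6143 (19.4%), and the medians were 11 and 21. Of all 27025 RefSeq promoters in the table, 56.1% held fewer than 10. Among protein-coding genes alone the medians were close, 21 and 22, and the shares with fewer than 10 were 29.9% of 147 and 13.4% of 5151. Motif letters, searched on both strands over the 300 bases, differed between the sets as well. TGANTCA (AP-1) was in 9.63% of the promoters of genes near held regions, 4.77% of those near other strong regions only and 7.93% of all. GAGGAAG (the PU.1 core) was in 17.0%, 13.6% and 13.5%. Motifs with CG inside went the other way: GGGCGG (SP/KLF) was in 49.5%, 64.0% and 35.9%, GCGCANG (NRF1) in 17.0%, 30.2% and 16.9%, CCGGAAG (ETS, sharing GGAAG with the PU.1 core) in 8.72%, 17.9% and 9.12%, and TGACGT (CRE) in 7.34%, 12.5% and 7.64%. CCAAT (NF-Y) was in 33.9%, 41.6% and 37.9%, and CACGTG (E-box) in 9.17%, 10.2% and 7.24%. In protein-coding genes the AP-1 letters were in 10.2% and 4.35% and the SP/KLF letters in 64.6% and 68.7%. A match describes the letters of the window only.

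The number of reads in regions differed between the groups and set how well each value was known. The background pileup of the genome, read back from the authors' peak folds, was not lower in CuNZ@Gel. It was 1.003 and 0.962 in the Gel libraries and 1.168 and 1.201 in the CuNZ@Gel libraries. Reads in regions were 18842444 and 17914111 in the Gel libraries and 7440721 and 10236773 in the CuNZ@Gel libraries, and peaks numbered 59251 to 61757 and 42612 to 53273. Held regions were well covered, with 462 to 2071 reads each in the Gel libraries and 255 to 1511 in the CuNZ@Gel libraries. Strong shared regions lay near 15 of 25 macrophage identity genes, 3 of 16 lymphocyte genes, 1 of 16 dendritic and granulocyte genes and none of 14 fibroblast or 16 unrelated tissue genes. Summed over all regions nearest to the macrophage identity genes, RPM was 2795 and 2839 in Gel and 2151 and 2178 in CuNZ@Gel. Fibroblast genes summed to 118 to 122 in Gel and 143 to 144 in CuNZ@Gel. Unrelated tissue genes summed to 67.2 to 68.6 and 84.3 to 87.3 in the same order. Lymphocyte genes had 378 to 380 and 368 to 376, and dendritic and granulocyte genes 303 to 314 and 271 to 295. No change of cell type is read from these sums. The part of the number of reads in regions in the results was not tested.

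The held regions departed from a broad shift of strong regions. The strong shared regions had a median change of -0.59, and 9716 of them (95.2%) were below 0. In the whole table limma called 16314 regions higher (21.2% of 77014 tested) and 16855 lower (21.9%). Of the strong shared regions, 1.67% were called higher and 87.4% lower. Of the held regions 167 were among those called higher and none among those called lower, a count that the rule largely fixes. The count was 107 without Gel replicate 2, 115 without Gel replicate 1, and 155 and 171 without CuNZ@Gel replicates 2 and 1. The median change of the held regions was 0.24, with quartiles of 0.16 and 0.34 and a maximum of 1.19. A change of 0.5 or more was seen in 39, of 0.25 to 0.5 in 111 and below 0.25 in 168.

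Per library, the held regions had median levels of 5.32 and 5.33 in Gel and of 5.65 and 5.66 in CuNZ@Gel, while the other strong shared regions had 5.80 and 5.82 in Gel and 5.26 and 5.29 in CuNZ@Gel. In CuNZ@Gel the order of the medians was thus the opposite of that in Gel, which largely follows from the rule. Both CuNZ@Gel libraries exceeded both Gel libraries at 291 held regions, and the groups overlapped at 27; over all tested regions, 33.7% had groups that did not overlap with CuNZ@Gel higher. Taken pair by pair, CuNZ@Gel exceeded Gel at 306 to 314 of the 318, again largely by the rule.

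The share of strong regions that were held fell with the Gel level. It was 217 of 3373 regions (6.43%) at levels of 5 to 5.5, 87 of 2820 (3.09%) at 5.5 to 6, 13 of 2118 (0.614%) at 6 to 6.5 and 1 of 1185 (0.0844%) at 6.5 to 7. No region above 7 was held. The median change of all strong shared regions also went down over these steps, from -0.46 to -0.55, -0.64 and -0.72.

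**Figure D1:**
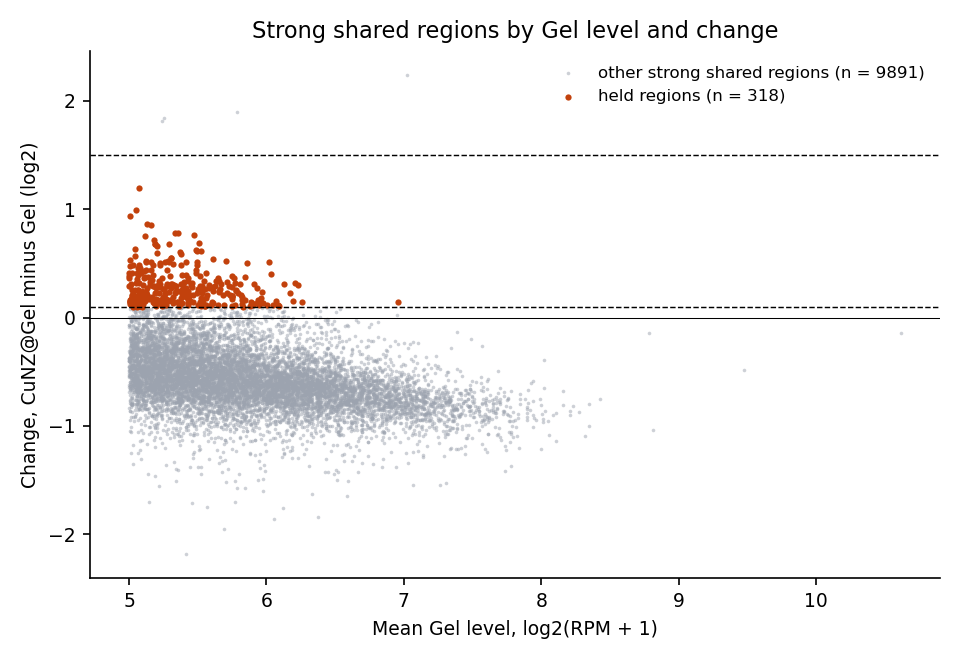
Each point is a strong shared region, placed by its mean Gel level (x axis, log2(RPM + 1)) and its change (y axis, log2, CuNZ@Gel minus Gel); orange points are the 318 held regions, grey points the other 9891, and dashed lines the limits 0.1 and 1.5. The held regions sit at the upper edge of a cloud with a median of -0.59, mostly at Gel levels of 5 to 6.

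The region with the largest change was near Odc1, ornithine decarboxylase, which makes putrescine at the start of polyamine synthesis (chr12:17559930-17561493, GRCm39). Its levels were 5.10 and 5.05 in Gel and 6.33 and 6.20 in CuNZ@Gel, or 33.3 and 32.1 against 79.4 and 72.5 RPM, a change of 1.19. Trim56, an E3 ubiquitin ligase of antiviral DNA and RNA sensing, had a region (chr5:137131403-137132561) at 5.17 and 4.94 in Gel and 5.97 and 6.11 in CuNZ@Gel, a change of 0.99. S100a10, the annexin A2 partner that binds plasminogen at the cell surface, had one (chr3:93479244-93480096) at 5.14 and 5.12 against 6.04 and 5.95, a change of 0.87. In these 3 regions the groups were far apart compared with the gap between the libraries of a group.

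The next 9 regions by change among genes with a symbol lay near genes of varied function. All had both CuNZ@Gel libraries above both Gel libraries. The region near Ttc9, a tetratricopeptide repeat protein (chr12:81715064-81716674), changed by 0.85, from 5.21 and 5.11 to 6.08 and 5.94. Psmb7, a catalytic subunit of the proteasome (chr2:38542706-38544123), had levels of 5.38 and 5.29 against 6.06 and 6.16. Lhfpl2 (chr13:94132795-94134999), a tetraspan membrane protein gene with 2 held regions, had 5.41 and 5.30 against 6.20 and 6.08. Micall2, which links Rab proteins to actin in vesicle recycling (chr5:139712001-139713450), changed by 0.76. Fcrl1, an Fc receptor-like gene known from B cells (chr3:87283438-87284779), changed by 0.69, and Slc41a2, a magnesium transporter (chr10:83156577-83158756), by 0.68. Uck2, a kinase of the pyrimidine salvage pathway (chr1:167069613-167070214), and Thap7, a zinc finger repressor (chr16:17360230-17361038), both changed by 0.68, and Plekhn1 (chr4:156312210-156313711) by 0.62. The widest gap between replicates in these 9 regions was that of Uck2 in Gel (5.30 and 5.07).

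**Figure D2:**
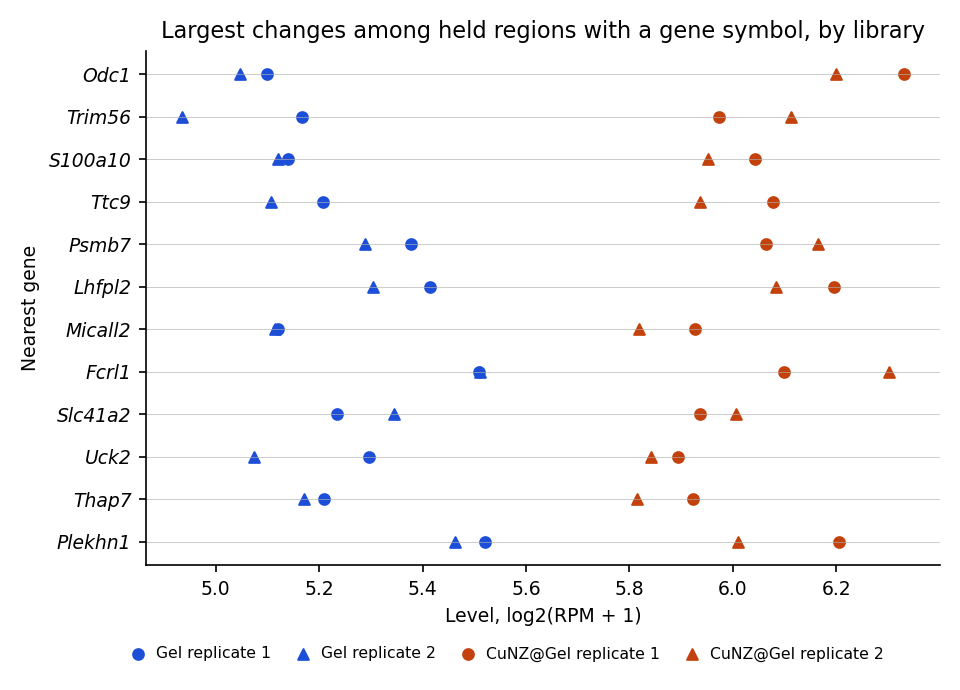
Level in each library (x axis, log2(RPM + 1)) of the 12 held regions with the largest change among the 186 whose nearest gene has a symbol (y axis); blue marks are Gel, orange CuNZ@Gel, circles replicate 1 and triangles replicate 2. In every one of these regions both CuNZ@Gel libraries lie above both Gel libraries, most widely near Odc1 (5.10 and 5.05 against 6.33 and 6.20).

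The 12 held regions with the highest Gel levels among genes with a symbol had changes of 0.10 to 0.32, and adaptors and redox enzymes were among the nearest genes. Sh3bp2, an adaptor of Syk and Src-family signalling in macrophages and osteoclasts, had a region (chr5:34692327-34693556) at 6.21 and 6.30 in Gel and 6.44 and 6.36 in CuNZ@Gel, a change of 0.15. Rcan1, an inhibitor of calcineurin (chr16:92195525-92197447), had 6.24 and 6.23 against 6.58 and 6.50. Tmem252 (chr19:24592846-24594326) had 6.17 and 6.25 against 6.47 and 6.59. Fyb, an adaptor that couples immune receptors to integrins, had the widest held region of a gene with a symbol (chr15:6584154-6586784, 2631 bases) at 6.22 and 6.17 against 6.35 and 6.35. The groups did not overlap in these 4 regions. The regions near Snx29, a sorting nexin (0.23), Mvp, the major vault protein (0.12), Bcar3, an adaptor of p130Cas (0.15), Lactb, a mitochondrial serine protease-like protein (0.15), Tex264, a receptor for autophagy of the endoplasmic reticulum (0.13), and Pgd, the pentose phosphate pathway enzyme (0.31), had the other changes in this group. Ocstamp, a membrane protein of osteoclast fusion, changed by 0.27 from 6.01 and 5.86 to 6.25 and 6.15. Srxn1, sulfiredoxin, which repairs overoxidised peroxiredoxins, had overlapping groups (6.07 and 6.12 against 6.11 and 6.28) and a change of 0.10, at the limit of the rule; without CuNZ@Gel replicate 2 it was 0.0145. Aprt, the adenine salvage enzyme, had a region of 2461 bases (chr8:123301584-123304044) and Lactb one of 2604 bases.

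Held regions occurred near genes of 10 of 22 gene lists and made up 21 of the 642 strong shared regions near list genes (3.27%), beside 3.11% over all strong shared regions. The cytoskeleton and adhesion list held the most, 7 of 93. Its members were 3 regions of Tns3 and 1 each of Pxn, Itga5, Actn1 and Arhgap18. Tns3, tensin 3, which ties integrins to actin, was the single gene with 3 held regions, with changes of 0.17, 0.22 and 0.20 (chr11:8524737-8525925, chr11:8546582-8547461 and chr11:8609258-8610279). Pxn, the scaffold paxillin (chr5:115672996-115674169), had 5.48 and 5.504 in Gel and 5.69 and 5.76 in CuNZ@Gel. Itga5, the fibronectin receptor subunit (chr15:103278828-103279594), had 5.42 and 5.40 against 5.56 and 5.69, and Actn1, the crosslinker alpha-actinin (chr12:80275491-80277056), had 5.27 and 5.51 against 5.70 and 5.70. The median change over all 93 strong regions of the list was -0.50.

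The lysosome and phagocytosis list and the metal list also had members. Among 52 strong regions of the lysosome and phagocytosis list, 3 were held, near Abcg1, Tfeb and Cd36. Abcg1, which exports cholesterol (chr17:31292847-31294970), had levels of 5.80 and 5.73 in Gel and 5.99 and 6.27 in CuNZ@Gel. Tfeb, the transcription factor of lysosome genes (chr17:48077527-48078691), had 5.22 and 5.17 against 5.49 and 5.45, and Cd36, which takes up oxidised lipids (chr5:18084316-18085515), had 5.06 and 4.98 against 5.11 and 5.43; without CuNZ@Gel replicate 2 its change was 0.0915 in place of 0.25. Among 18 strong regions of the copper, zinc and metal list, 2 were held, and both were near Slc30a1, the zinc exporter ZnT1 that zinc itself induces. They lie 1519 bases apart, at chr1:191607564-191608654 with 5.36 and 5.21 in Gel against 5.39 and 5.49, and at chr1:191610174-191611517 with 4.93 and 5.09 against 5.57 and 5.51. All 4 regions nearest to Slc30a1 were above 0, and these were its 2 strong ones. The median of the metal list was -0.64.

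Signalling and macrophage genes contributed single regions. Inpp5d, the phosphatase SHIP1 that limits PI3 kinase signalling (chr1:87565104-87566164), changed by 0.25, Dusp4, a MAP kinase phosphatase (chr8:35281964-35283691), by 0.26, and Pik3ap1, an adaptor of PI3 kinase (chr19:41320000-41321253), by 0.16, so 3 of 63 strong regions of that list were held. Itgam, the integrin CD11b, had the held region of the macrophage identity list (1 of 27; chr7:127649831-127650482), with 5.53 and 5.44 in Gel and 5.97 and 5.88 in CuNZ@Gel. Nfkbia, the inhibitor of NF-kB that NF-kB induces (chr12:55512009-55514101), had 5.65 and 5.77 against 6.20 and 6.26. Ppard, a lipid-sensing nuclear receptor of alternative macrophage activation (chr17:28499220-28500100), had 5.59 and 5.63 against 6.19 and 6.12. Ldha, lactate dehydrogenase A (chr7:46482736-46483584), had 5.17 and 4.96 against 5.40 and 5.23. The groups did not overlap in these 4 regions.

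In 12 lists no strong shared region was held. Among these, the fibroblast and unrelated tissue lists had no strong shared region that could be held. The lymphocyte list had 4 and the dendritic and granulocyte list 1. Signal-induced transcription factors had none among 60, with a median change of -0.998, cell cycle and death genes none among 51, chromatin remodellers none among 51, interferon genes none among 22, unfolded protein response genes none among 20, housekeeping genes none among 20, heat shock genes none among 15 and inflammatory cytokines none among 13. At the share of all strong regions these lists would hold few members, and nothing particular to a list is read from its count.

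Many nearest genes also had strong regions that were lower on the deposited scale. Of the 304 nearest genes, 151 had another strong shared region, and these 243 other regions had a median change of -0.50. Of them 7 were above 0 and 235 below, and limma called 202 (83.1%) lower and none higher. Of all strong shared regions 87.4% were called lower, and those that were not held had a median change of -0.60. Being lower was thus not particular to these genes. With cyclic loess the median of the 243 regions was -0.01. They were therefore lower on the deposited scale and near 0 once the trend with level was taken out. At 123 of the 151 genes another strong region had a higher Gel level than the held one, and at 143 every other strong region was below 0. The held region exceeded the gene's other strong regions by a median of 0.77. Held regions were chosen for a change of at least 0.1, and the other strong regions of these genes fell below that. The rule thus fixes the direction of this gap and part of its size.

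On the deposited scale, single genes held both directions. The Odc1 region at chr12:17594375-17595473 had 6.26 and 6.54 in Gel and 5.496 and 5.68 in CuNZ@Gel, a change of -0.81 beside 1.19 at the held region. The other strong regions of Nfkbia changed by -1.16 (chr12:55538518-55539663, from 7.26 and 7.26 to 5.98 and 6.21) and by -0.49 (chr12:55535541-55536043), beside 0.52 at the held region. The Nfkbia region with the higher Gel level thus averaged 6.10 in CuNZ@Gel, below the 6.23 of the held region. Ppard had changes of -0.81 and -0.30 beside 0.54, Ldha -0.76 and -0.47 beside 0.25, Rcan1 -0.69 beside 0.30 and Pgd -0.44 beside 0.31. All 6 other strong regions of Inpp5d were below 0, from -0.97 to -0.33. S100a10, with 2 held regions and no other strong one, did not show this split (0.87 and 0.14). With cyclic loess the other regions of Odc1, Nfkbia and Rcan1 stayed below 0 (-0.22 for Odc1, -0.41 and -0.16 for Nfkbia, -0.14 for Rcan1), whereas that of Pgd was at 0.15, and 1 each of Ldha, Ppard and Inpp5d were at 0.11, 0.04 and 0.15. On the background scale both the held and the other strong regions of these 7 genes were below 0, except the held region of Odc1. On these 3 scales the held region of each of the 7 genes had a higher change than its other strong regions. On the deposited scale the rule fixes that order, and the background scale, with a single factor per library, nearly keeps it. The order is therefore given as a description.

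**Figure D3:**
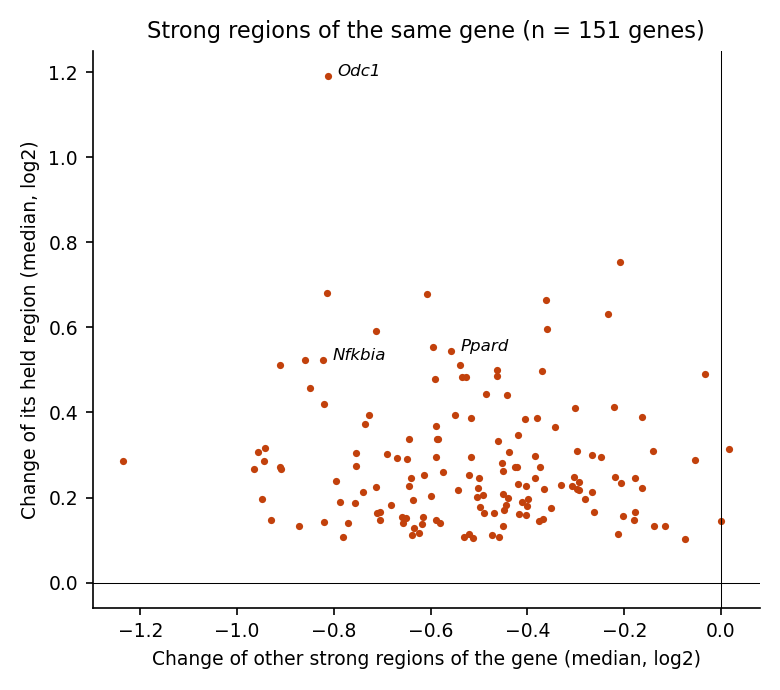
Each point is 1 of 151 genes with a held region and at least 1 other strong shared region, placed by the median change of its other strong regions (x axis, log2) and of its held regions (y axis, log2); lines mark 0. On the deposited scale nearly all points lie left of 0 on the x axis, with Odc1 at -0.81 and 1.19; the y values are above 0 by choice.

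Weaker regions around held regions tended to be higher, which the rule did not use. The 1592 weaker or unshared regions of genes with a held region had a median change of 0.18, and limma called 31.1% of those tested higher and 10.8% lower. The 21571 such regions of genes with a strong region but no held one had a median of 0.06, with 23.7% and 14.3%. By distance, the 2452 weaker regions within 50 kb of a held region had a median of 0.15, with 29.7% higher and 11.9% lower. The 34395 near other strong regions only had 0.04, with 21.6% and 14.9%. On the cyclic loess scale the 2 medians by gene were 0.12 and -0.03. Neighbouring regions are not independent, and no test was made of these differences.

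In form, held regions were wide and low. Their median width was 1193.5 bases, beside 1002 in other strong regions matched on Gel level (medians per step of 0.5, averaged with the held regions' weights). Their Gel signal was 33.2 RPM per kb, beside 42.6 in the matched regions. The authors' peak fold enrichment over background had a median of 9.87 in each Gel library, beside 12.9 and 13 in the matched regions. In CuNZ@Gel the folds were closer, 8.01 and 8.65 against 8.51 and 9.56. The mean CuNZ@Gel fold was below the mean Gel fold at 245 of the 318 held regions (77.0%) and at 9325 of the 9891 other strong regions (94.3%). Peaks at held regions spanned medians of 1028 and 1012 bases in Gel and 1014.5 and 1042 bases in CuNZ@Gel, whereas those at matched regions spanned 879 and 896 bases in Gel and 713 and 796 bases in CuNZ@Gel. In 17.9% of held regions some library had 2 or more peaks, beside 11.2% of matched regions. Widths, folds and peak lengths come from the libraries that entered the rule, so part of these differences may follow from the choice.

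Width and fold each divided strong regions of similar level. Of the 6193 strong shared regions with Gel levels of 5 to 6, 304 (4.91%) were held. The share was 2.64% in the narrowest of 4 equal classes (up to 825 bases) and 8.34% in the widest (1259 bases and over). It was 8.97% in the class with the lowest Gel peak fold (up to 9.44) and 0.581% in that with the highest (15.7 and over). Among regions in both the widest and the lowest-fold class 67 of 491 (13.6%) were held, and among those in both the widest and the highest-fold class none of 100. The width comes from the peaks of all 4 libraries and the Gel fold from the Gel libraries. These libraries also entered the rule, so the shares are a description.

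**Figure D4:**
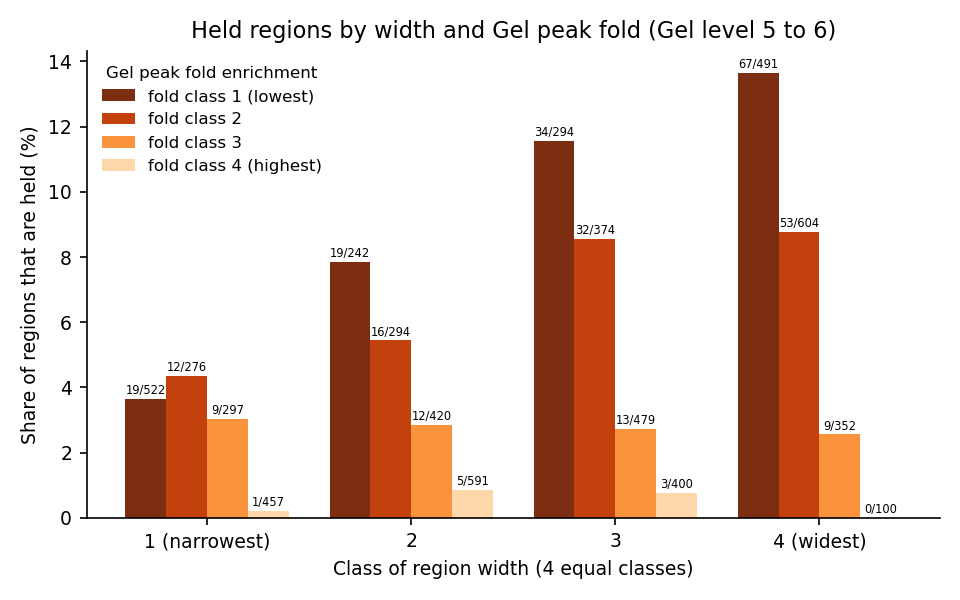
Bars give the share of strong shared regions with Gel levels of 5 to 6 that were held (y axis, %), by class of region width (x axis, 4 equal classes) and of mean Gel peak fold enrichment (colour), with held and all regions above each bar. The share rises to 67 of 491 in wide regions of low fold and is at most 5 of 591 at any width in the class of the highest fold.

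By position, held regions were spread over the autosomes. They were less often the strongest region of a gene by Gel level than level-matched strong regions. The strong regions that were held ran from 5 of 334 on chromosome 14 to 13 of 271 on chromosome 18. On chromosome X none of 152 was held, which allows a share of up to 1.97% for counting error only. A held region was the strongest region of its nearest gene in 56.9% of cases, beside 74.0% of level-matched strong regions, and its gene had a median of 6 regions, beside 3.96. The nearest gene was protein-coding for 59.1% and a long noncoding RNA for 32.1%, beside 76.7% and 17.3% in the matched regions. Held regions formed 19 neighbouring pairs within 50 kb. One run lay near S100a11, S100a10 (2 regions) and the predicted gene Gm40093 on chromosome 3, and another pair lay near Trem2, a lipid receptor of macrophages and microglia, and its relative Treml1, 7650 bases apart. The microRNA genes Mir29b-1 (chr6:31057291-31058766) and Mir199a-1 (chr9:21407843-21409213) were nearest to held regions with changes of 0.11 and 0.14. The genes in these last sentences were chosen after their values were seen.

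Replicates were as close at held regions as elsewhere. The median gap between the 2 Gel libraries was 0.07 and that between the 2 CuNZ@Gel libraries 0.09, beside 0.08 and 0.12 in level-matched strong regions. The choice was also made with fewer libraries, on the deposited scale. When regions were chosen by the same limits in 1 Gel and 1 CuNZ@Gel library, 315 to 358 were chosen, and in the other 2 libraries 272 to 300 of them were above 0, which is 81.6% to 88.9%. Among all strong regions of the same libraries 5.18% to 5.94% were above 0. The median change in the unused libraries was 0.19 to 0.25. The split reuses the libraries of the rule, 247 to 272 of the chosen regions were members, and peaks and scaling factors came from all 4 libraries, so these shares describe how alike the replicates were on that scale.

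The direction of the held regions depended on the scaling, and their distance from other strong regions did not under the scalings tried. Their median change was 0.24 as deposited, 0.25 with median-of-ratios factors, 0.52 with totals of reads in regions and 0.74 with cyclic loess, which takes out any trend with level. With totals and with cyclic loess limma called all 318 held regions higher. Of all tested regions, 30% and 18.8% were called higher and 11.9% and 13.8% lower in the same order. The held median was -0.79 when libraries were scaled to the background pileup of the genome, as read back from the authors' peak folds. On that scale Odc1 alone stayed above 0 (0.15), and limma called 271 held regions lower and none higher. The held regions were chosen on this contrast, so their call counts follow largely from the rule and the scaling and are no test. Under the background scaling 4.85% of all tested regions were called higher and 60.6% lower, and the median of all tested regions was -0.82. Held regions thus lay close to the median of all regions there. The other strong regions had medians of -0.60, -0.59, -0.32, -0.08 and -1.63 in the same order, so the difference of the medians was 0.82 to 0.84 under all 5. Scalings with a single factor per library leave that difference nearly fixed by construction. Cyclic loess moves regions of similar mean level over the 4 libraries by similar amounts. The held and the other strong regions had similar levels in that sense, so it changes the difference little as well. None of the scalings could therefore test the difference. Reads in regions, counted in units of 1000000, per unit of background pileup were 18.8 and 18.6 in Gel and 6.37 and 8.52 in CuNZ@Gel. Which scaling matches the cells cannot be told apart with these data.

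**Figure D5:**
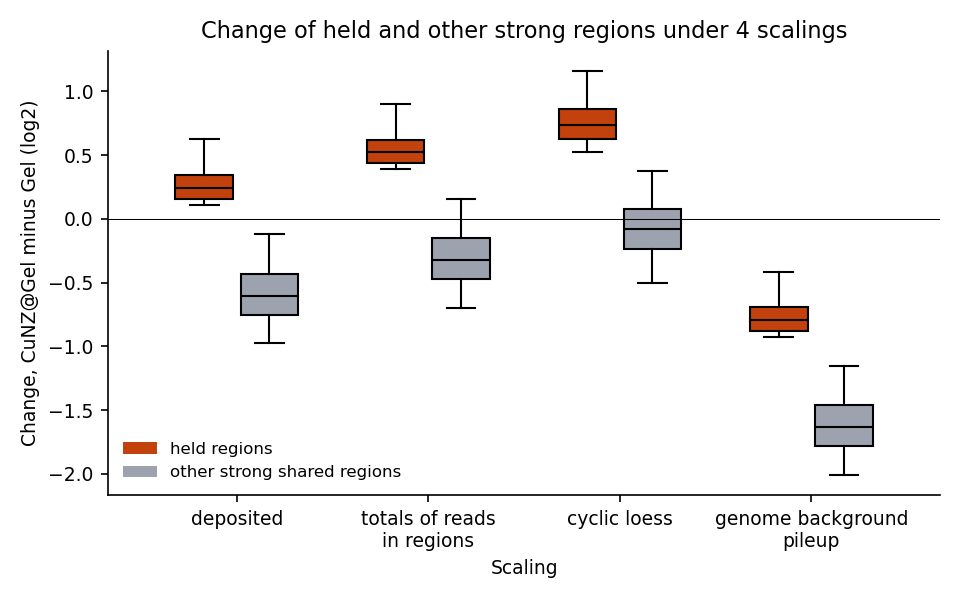
Boxes show the change (y axis, log2, CuNZ@Gel minus Gel) of the 318 held regions (orange) and the 9891 other strong shared regions (grey) under 4 scalings (x axis); boxes span the quartiles with the median as a line, and whiskers the 5th to 95th percentile. The held median is 0.24 as deposited and -0.79 on the background scale, above the grey box in each case.

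The limits of the rule divided a continuous range. Just inside the limit of 0.1 were regions near Rcc1 (0.10), Srxn1 (0.10) and P2ry6 (0.10), and just outside it were Abcc4, Ubtd1 and St3gal6, each at 0.10 after rounding and below the limit. Another 171 strong regions had changes of 0 to 0.1. At the Gel level of 5 the nearest inside were Rab17, Ehd4 and Arhgap18, with changes of 0.41, 0.39 and 0.15. Fnip2, Ppp1r1a and Rabac1 fell just short of that level, with changes of 0.87, 0.27 and 1.13. The Rabac1 region (chr7:24677135-24678989; 5.004 and 4.99 in Gel, 6.14 and 6.10 in CuNZ@Gel) thus changed almost as much as that of Odc1. A change of 1.5 or more was found in 4 strong shared regions, 3 of them unplaced and 1 near Sfi1 (chr11:3134376-3136599; 5.197 and 5.28 against 7.34 and 6.77, a change of 1.81).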

How the data were processed

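ATAC-seq libraries of RAW264.7 cells were analysed, 2 titled Gel and 2 titled CuNZ@Gel. The submitters' processing notes list MACS2 2.2.8, Picard 2.27.5, Bowtie2 2.3.4.3, SAMtools 1.17, fastp 0.23.1 and build GRCm39 without their roles. The authors deposited a log2 value per library for each of 80929 regions, with the name of the nearest gene. They were read as log2(RPM + 1) because 100% of low values, of up to 60 reads, came within 0.1 of whole reads; the scaling factors recovered were 0.910, 0.902, 1.11 and 1.10. The deposited peak lists, one per library, give fold enrichment (a ratio), -log10 of p-value and q-value, a score derived from the q-value and the summit position; these are the authors' values and only describe or filter peaks.

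Peaks of the 4 lists that lay no more than 1 base apart were merged, which gave the regions in the order of the values, and hence their coordinates, counted from 1. Members and gene lists were chosen with earlier results of these data known. The test took regions reaching 0.710 RPM (10 reads at the median depth) in at least 2 libraries and 15 reads in all, and was run with limma 3.58.1 in R 4.3.3 (trend on intensity, Benjamini-Hochberg adjustment, two-sided, threshold 0.05) after being tested on simulated data; 4 rows that name no gene stayed out. Other values were computed with Python 3.11.15, pandas 2.3.3 and numpy 2.4.6. Regions were named by rule among those with a gene symbol: the 12 largest changes, the 12 highest Gel levels, the 3 widest, the 3 on each side of each limit, genes with 3 or more members, and up to 4 members per gene list. Alternatives covered scaling, pseudocount, filters, the limits, peak cover, voom, a replicate block and leaving out each library. Promoter sequences and gene types came from RefSeq (GRCm38.p6).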

Additional observations from a re-analysis of the deposited data

How the results depend on the processing

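Changes without 1 library were checked for 42 of the 48 held regions named by rule. Those of Aprt, Rcc1, P2ry6, Rab17, Ehd4 and Arhgap18 were not checked singly. None of the 42 was below 0, but 10 moved by over 1.5 times and 6 were below 0.1 in at least 1 case. Of all 318 held regions, 318 and 316 were above 0 without Gel replicates 1 and 2. Without CuNZ@Gel replicates 1 and 2, 316 and 315 were above 0. Without CuNZ@Gel replicate 2 the changes were 0.0145 for Srxn1, 0.0575 for Bcar3, 0.077 for Tex264, 0.0915 for Cd36, 0.127 for Inpp5d and 0.2255 for Abcg1. Without CuNZ@Gel replicate 1 they were 0.1915 for Srxn1, 0.2405 for Bcar3 and 0.4095 for Cd36. Without Gel replicate 1 they were 0.073 for Lactb, 0.0795 for Srxn1 and 0.1885 for Actn1, and without Gel replicate 2, 0.0855 for the first Slc30a1 region and 0.1465 for Ldha. The number of regions meeting the rule was 307 to 347, the median change of the 318 held regions 0.24 to 0.27, and calls over all tested regions ranged from 11530 to 14953 higher and 12098 to 16608 lower. Whether libraries of the same replicate number shared a culture or day is not stated. Their deviations from the group means had a correlation of 0.016 over the tested regions, which cannot settle it. With the replicate block 16697 regions were called higher and 17273 lower. The number meeting the rule was 799 with totals (230 of the 318 among them), 2139 with cyclic loess (198) and 9 with background pileup (1). It was 820 and 101 with Gel limits of 4.5 and 5.5, and 196 with a change limit of 0.2. With a limit of 0.2 in the choosing pair, the share above 0 in unused libraries was 93.0% in place of 84.8%. The split reuses the libraries of the rule, so these shares describe only how alike the replicates were. The held median was 0.52 with totals, 0.74 with cyclic loess and -0.79 with background pileup. Totals and cyclic loess gave 9155 and 10612 regions called lower, and background pileup 3738 higher and 46699 lower. The cause was not tested. On the background pileup scale those of the 42 checked regions that were below 0 had changes of Trim56 -0.043, S100a10 -0.17, Ttc9 -0.19, Psmb7 -0.26, Lhfpl2 -0.26, Micall2 -0.28, Fcrl1 -0.35, Slc41a2 -0.35, Uck2 -0.35, Thap7 -0.36, Plekhn1 -0.42, Sh3bp2 -0.90, Rcan1 -0.74, Tmem252 -0.73, Fyb -0.89, Snx29 -0.82, Srxn1 -0.94, Mvp -0.92, Bcar3 -0.89, Lactb -0.90, Tex264 -0.91, Ocstamp -0.77, Pgd -0.74, Tns3 -0.86, -0.81 and -0.83, Itgam -0.60, Nfkbia -0.52, Ppard -0.50, Slc30a1 -0.87 and -0.50, Abcg1 -0.68, Tfeb -0.76, Cd36 -0.78, Pxn -0.81, Itga5 -0.82, Actn1 -0.73, Inpp5d -0.79, Dusp4 -0.77, Pik3ap1 -0.86, Ldha -0.78. The smallest read number at a held region, 255 in CuNZ@Gel replicate 1, limits the precision of small changes near 0.1.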
